A study of Mus musculus with 16 samples.

Results

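The genes described here are 10 transcripts best known from disease-associated microglia: Trem2, Tyrobp, Itgax, Axl, Cd9, Cst7, Lgals3, Fabp5, Ank and Ch25h. They were taken by symbol from 12394 genes on an Affymetrix 3' expression array. Of 22690 probe sets, 13 named exactly 1 of these symbols. Each gene was read from its probe set with the highest mean over 16 arrays, and the other probe sets served as a check. Each array held RNA of 1 mouse, from glioma macrophages sorted as positive for CD11b and negative for Gr1. Groups were 8 mice given BLZ945, which blocks the kinase of the CSF-1 receptor (CSF-1R), and 8 given its vehicle, captisol, by gavage once per day for 7 days. A dose of 200 mg is labelled, and the body weight it refers to is not. All mice, Vehicle and BLZ945 alike, had the genotype Nestin-Tv-a;Ink4a/Arf-/- on a mixed background. Tumours were induced by intracranial injection of DF-1 cells that release an RCAS virus carrying PDGF-B. The virus can infect cells in which the Nestin promoter drives its receptor, so these tumours model a glioma driven by 1 growth factor, and the macrophages themselves lack Ink4a/Arf.

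Vehicle mice were 11.29 weeks old (4 mice), 11.43 weeks (2 mice) or 12.29 weeks (2 mice), and BLZ945 mice 11.29 weeks (4 mice) or 13.14 weeks (4 mice). There were 4 females and 4 males in Vehicle and 5 females and 3 males in BLZ945. The labelled initial tumour volume, without a unit, was 11.9 to 27.3 in the 6 Vehicle mice that have one and 41.3 to 132.3 in BLZ945, so volume and agent cannot be told apart. Highest values of the arrays lay between 13.87 and 14.34 on the log2 scale. Of 11 macrophage markers measured, led by Csf1r and C1qa, 0 rose and 0 fell by the test used below. Their mean lay between 11.90 and 12.27 in Vehicle and between 11.94 and 12.30 in BLZ945, so markers of the labelled cell type were high on every array. In sorted bulk RNA, fewer cells of a type and less RNA per cell cannot be told apart.

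TREM2 is a surface receptor of myeloid cells that binds lipids and lipoproteins and signals through the adaptor protein TYROBP, also called DAP12. Microglia around amyloid plaques, dying neurons and demyelinated lesions lower their resting genes and pass into the disease-associated state, first without TREM2 and then through it. The later step is marked by Trem2-dependent genes of adhesion, lipid handling and protease control, among them Itgax, Axl, Cd9 and Cst7. Lgals3 and Fabp5 also belong to macrophages that come from blood monocytes.

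Of the 10 genes, 4 rose in BLZ945, 0 fell and 6 did not pass at an adjusted p under 0.05 (limma, Benjamini-Hochberg over all 12394 genes). Cst7, Itgax, Axl and Trem2 rose, and Cd9, Fabp5, Ank, Lgals3, Tyrobp and Ch25h did not pass. In simulated data this comparison recovered 23.9% of changes of 0.5 log2 units and 82.1% of those of 1, so a change near 0.5 can be missed. Among all genes 7.94% passed, 2.6% higher and 5.34% lower. The median difference was 0.66 log2 units over these 10 genes and 0.07 over all 12394. Of the 10 genes 9 lay above 0, as did 7576 of all 12394. Cst7 and Itgax more than doubled on the linear scale, and 0.444% of all genes both passed the test and rose by at least 2-fold. Calls in the whole array were 67.3% lower as deposited and 57.3% lower after quantile normalization was repeated, and 4 of these 10 genes passed under both. With the SD of each array's values as a covariate the balance turned, with 866 genes higher and 778 lower. In that fit 3 of the 10 passed, and Trem2 did not (0.57, limma adjusted p = 0.0725).

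**Figure D1:**
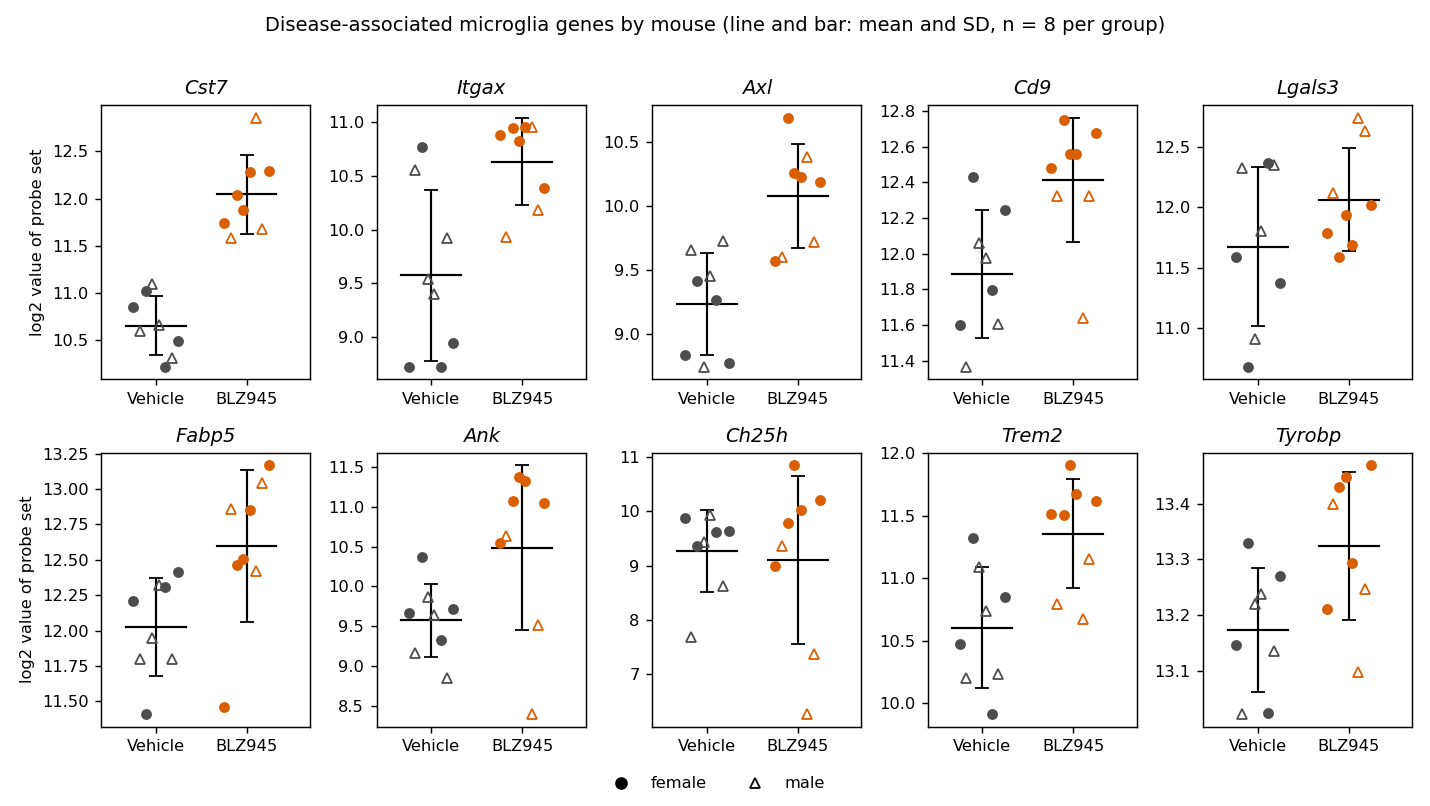
Log2 value of the probe set of each gene (y axis) in 8 Vehicle and 8 BLZ945 mice (x axis), 1 point per mouse, filled circles for females and open triangles for males. Lines and bars are the mean and SD. The groups part completely for Cst7 only, and Ank and Ch25h have their lowest BLZ945 values in 2 males.

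The receptor gene passed the test and the adaptor gene did not, and the difference between their changes was not tested. Trem2, the lipid-sensing receptor, lay between 9.91 and 11.33 in Vehicle (median 10.61) and between 10.68 and 11.91 in BLZ945 (median 11.51). The groups overlapped, with 5 of 8 BLZ945 mice above every Vehicle mouse and the males BLZ945 2, 6 and 7 among the Vehicle values. The mean went from 10.61 ± 0.48 to 11.36 ± 0.44 (SD, n = 8 each), a rise of 0.75 log2 units (SE 0.21, limma adjusted p = 0.0346). On the linear scale this was 1.68-fold (95% interval 1.24 to 2.29). An exact two-sided permutation test over the 12870 splits of the mice gave p = 0.00761 for Trem2, or 0.0769 adjusted over all genes. The call was also lost when Vehicle 1, 2, 6 or 7 was omitted, or BLZ945 1, 3, 4, 5 or 8 (limma adjusted p up to 0.0736), with differences of 0.65 to 0.85 over all 16 omissions.

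Tyrobp, the adaptor that carries the activating motif TREM2 lacks, lay between 13.02 and 13.33 in Vehicle (median 13.18) and between 13.10 and 13.47 in BLZ945 (median 13.35). The overlap was wide, and 4 of 8 BLZ945 mice were above every Vehicle mouse. The difference of 0.15 (SE 0.09, 95% interval -0.04 to 0.34) did not pass (limma adjusted p = 0.332). Its BLZ945 mean was 0.85 log2 units below the mean of the arrays' highest values, where a change can be compressed.

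The second Trem2 probe set was much dimmer, at 4.33 ± 0.29 in Vehicle and 4.47 ± 0.41 in BLZ945 (n = 8 each), and its difference of 0.14 did not pass (limma adjusted p = 0.634, over all probe sets, of which 6.84% passed). It followed the brighter one loosely over the 16 arrays (r = 0.352, no test). With the mean of both probe sets in place of the brighter one, the Trem2 difference was 0.45 (limma adjusted p = 0.0934).

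Itgax encodes integrin alpha X, the CD11c chain of complement receptor 4. It lay between 8.73 and 10.77 in Vehicle (median 9.47) and between 9.93 and 10.96 in BLZ945 (median 10.85). Vehicle mice were widely spread and BLZ945 mice were gathered at the top, with 5 of 8 above every Vehicle mouse. From 9.57 ± 0.79 the mean rose to 10.63 ± 0.41 (SD, n = 8 each), by 1.06 (SE 0.28, limma adjusted p = 0.0255), or 2.08-fold (95% interval 1.38 to 3.14). The exact permutation p of Itgax was 0.00606, or 0.0674 adjusted over all genes, and its limma call was lost (adjusted p 0.0523 to 0.0562) when Vehicle 1, 6 or 8 was omitted, or BLZ945 5. Itgam, which encodes the CD11b used in the sort, moved the other way and fell by 1.17 (limma adjusted p = 0.00807). Of 5 genes of related integrin chains and ligands, Itgam was the only one that passed. The beta chain gene Itgb2 differed by -0.10 (limma adjusted p = 0.622).

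Axl, a receptor tyrosine kinase that recognises phosphatidylserine on dying cells through the bridging protein GAS6, lay between 8.75 and 9.73 in Vehicle (median 9.34) and between 9.57 and 10.69 in BLZ945 (median 10.21). The overlap was narrow, with BLZ945 1, 2 and 7 inside the Vehicle range and the other 5 above it. The mean went from 9.24 ± 0.40 to 10.08 ± 0.41 (SD, n = 8 each), a rise of 0.85 (SE 0.19, limma adjusted p = 0.00899; exact permutation p = 0.00155, adjusted 0.0319). Its call held in each of the 16 fits that left out 1 mouse. The other Axl probe set stood near the bottom of the scale at 2.37 ± 0.15 and 2.78 ± 0.33 (n = 8 each) and differed by 0.41 (limma adjusted p = 0.0697).

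The related receptor gene Mertk differed by 0.43 (limma adjusted p = 0.0702) and the ligand gene Gas6 by -0.78 (0.112). Among 6 genes of this receptor family, its ligands and suppressors, 0 rose and 0 fell by limma, and Mertk and Gas6 had the smallest p.

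Cd9, a tetraspanin that organises membrane proteins into clusters, lay between 11.37 and 12.43 in Vehicle (median 11.89) and between 11.64 and 12.75 in BLZ945 (median 12.52). BLZ945 6 was low, at 11.64, and the other 7 BLZ945 mice were at 12.32 or more. The difference of 0.53 (SE 0.17, 95% interval 0.17 to 0.88) did not pass (limma adjusted p = 0.0628). It passed without BLZ945 6 (0.64, limma adjusted p = 0.0112), the lowest BLZ945 mouse, and without Vehicle 3 (0.61, limma adjusted p = 0.0319), the highest Vehicle mouse. Of 9 other tetraspanin genes and CD9 partners, 0 rose and 0 fell by limma, and Tspan4 (0.43, adjusted p = 0.186) and Cd82 (0.29, 0.197) came nearest.

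Cst7 encodes cystatin F, an inhibitor of cysteine proteases that acts inside endosomes and lysosomes. It lay between 10.22 and 11.09 in Vehicle (median 10.63) and between 11.58 and 12.86 in BLZ945 (median 11.96). The groups did not overlap, which held for 0.315% of all genes in this direction. The mean went from 10.66 ± 0.32 to 12.04 ± 0.42 (SD, n = 8 each), a rise of 1.39 (SE 0.18, limma adjusted p = 0.000125), or 2.62-fold (95% interval 2.02 to 3.39). The exact permutation p was 0.000155, the smallest that 12870 splits can give, or 0.0115 adjusted over all genes. Only 0.226% of all genes rose as much or more. With 1 mouse left out the rise was 1.27 to 1.45, and it was 1.40 in females, 1.37 in males and 1.48 in the mice of 11.29 weeks.

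Cystatin F acts on cathepsin C and legumain, among other proteases. Of 10 genes of cysteine proteases and other cystatins, 2 fell and 0 rose, where 5.34% of all genes fell. The 2 were Ctsc, the cathepsin C gene (-0.45, limma adjusted p = 0.0181), and Lgmn, the legumain gene (-0.34, 0.0339).

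Lgals3, the gene of galectin-3, a lectin that binds damaged lysosomes and is secreted by activated macrophages, lay between 10.68 and 12.36 in Vehicle (median 11.70) and between 11.58 and 12.74 in BLZ945 (median 11.98). Only the males BLZ945 6 and 7 exceeded every Vehicle mouse. The difference of 0.39 (SE 0.25, 95% interval -0.14 to 0.91) did not pass (limma adjusted p = 0.365). Of 7 other galectin and fatty acid-binding protein genes, 1 rose and 3 fell, where 2.6% of all genes rose and 5.34% fell. Lgals1 and Lgals9, 2 further galectin genes, fell (-1.01 and -1.27, limma adjusted p = 0.0144 and 0.0158).

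Fabp5, an intracellular carrier of fatty acids, lay between 11.41 and 12.41 in Vehicle (median 12.08) and between 11.46 and 13.17 in BLZ945 (median 12.68). All BLZ945 mice but BLZ945 1, at 11.46, were above every Vehicle mouse. The difference of 0.57 (SE 0.21, 95% interval 0.13 to 1.01) did not pass (limma adjusted p = 0.105), and it was 0.73 without BLZ945 1 (limma adjusted p = 0.0103), the lowest BLZ945 mouse. Its second probe set followed the first (r = 0.873 over 16 arrays, no test) and differed by 0.68 (limma adjusted p = 0.0749). The muscle-type carrier gene Fabp3 rose by 1.55 (limma adjusted p = 0.000677), and Fabp7, a carrier of glial progenitors, fell by 2.76 (0.000995).

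Ank encodes a membrane protein that releases pyrophosphate from cells. It lay between 8.85 and 10.37 in Vehicle (median 9.65) and between 8.39 and 11.38 in BLZ945 (median 10.84). In BLZ945, 6 mice were above every Vehicle mouse while BLZ945 6 was below every one. The difference of 0.91 (SE 0.36, 95% interval 0.17 to 1.66) did not pass (limma adjusted p = 0.129), and without BLZ945 6 it was 1.21 (limma adjusted p = 0.00581). Of 5 other genes of phosphate handling, 0 rose and 0 fell by limma, and the phosphate exporter gene Xpr1 (0.29, adjusted p = 0.2) and the importer gene Slc20a1 (-0.35, 0.321) came nearest.

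Ch25h encodes the enzyme that makes 25-hydroxycholesterol, a regulator of sterol synthesis and of immune cell migration. It lay between 7.69 and 9.92 in Vehicle (median 9.53) and between 6.27 and 10.85 in BLZ945 (median 9.57). BLZ945 mice stood on both sides of the Vehicle range, 3 above it and 2, the males BLZ945 6 and 7, below it. The difference was -0.17 (SE 0.53, 95% interval -1.28 to 0.95, limma adjusted p = 0.867), and its sign turned without BLZ945 6 (0.24) or BLZ945 7 (0.08). Of 4 other oxysterol genes, 0 rose and 0 fell by limma, and the hydroxylase genes Cyp7b1 (-0.51, adjusted p = 0.193) and Cyp27a1 (0.38, 0.24) came nearest.

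**Figure D2:**
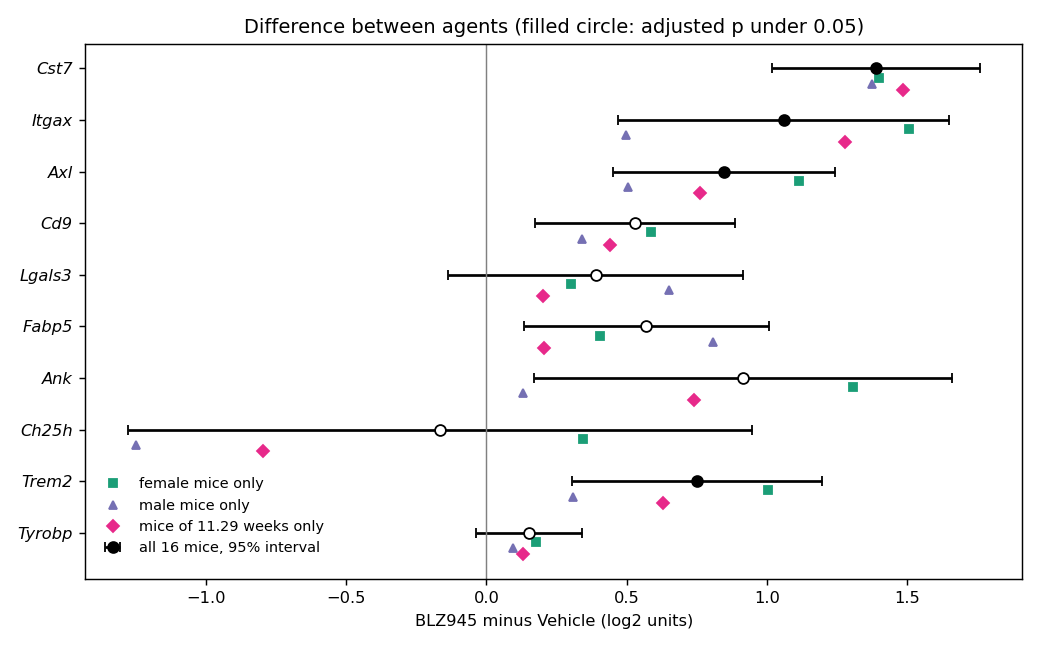
Difference of BLZ945 minus Vehicle in log2 units (x axis) for each gene (y axis), with its 95% interval from the fit of all 16 mice, filled where the adjusted p was under 0.05. Coloured marks show the difference in females, in males and in the mice of 11.29 weeks. All marks of Cst7 lie between 1.37 and 1.48, while those of Ch25h run from -1.25 to 0.34.

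The promoters of the genes that rose are shown because 3 of these 4 carry the pattern TGANTCA close to the start site. Of all promoter windows 7.81% hold it. The pattern accepts any middle base and is therefore wider than the AP-1 site it was searched for. That base was T in Cst7, G in Itgax and A in Trem2. Each stretch runs from 100 bases before to 10 bases after the transcription start of its promoter window (RefSeq, GRCm38.p6). It is on the gene's own strand, with matches to TGANTCA in capitals. For Itgax and Axl the start of the window is not the outer end of the annotated gene (128129526 and 25788924). Other starts of these genes were not searched.
Cst7, chr2:150570315-150570424, plus strand: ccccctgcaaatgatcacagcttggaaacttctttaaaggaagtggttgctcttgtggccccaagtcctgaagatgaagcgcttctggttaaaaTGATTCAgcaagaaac
Itgax, chr7:128129450-128129559, plus strand: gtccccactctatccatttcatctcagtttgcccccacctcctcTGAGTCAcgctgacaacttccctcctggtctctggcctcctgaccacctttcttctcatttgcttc
Trem2, chr17:48346301-48346410, plus strand: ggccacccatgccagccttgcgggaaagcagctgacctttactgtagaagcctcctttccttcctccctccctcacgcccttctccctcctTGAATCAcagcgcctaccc
Axl, chr7:25788724-25788833, minus strand: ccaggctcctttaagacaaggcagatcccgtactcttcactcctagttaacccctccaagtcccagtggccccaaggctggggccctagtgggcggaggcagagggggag

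Counted from the start site, the match begins at -6 in Cst7, at -56 in Itgax and at -9 in Trem2. Windows of 300 bases, 250 before to 50 after the start, were found for 8 of the 10 genes, and not for Fabp5 and Tyrobp. On either strand, TGANTCA was in 3 of these 8 windows and in 7.81% of all 32851 windows. The C/EBP pattern TTGCNNAA was in 3 (Cst7, Ch25h and Trem2) against 10.8%, and in Cst7 it overlaps the TGANTCA match. The NF-kappaB pattern was in 3 (Axl, Lgals3 and Ch25h) against 20.7%, and SP1 GGGCGG in 4 (Axl, Cd9, Lgals3 and Ank) against 35.7%. The patterns PU.1 GAGGAAGT, IRF, E-box CACGTG and the CLEAR core TCACGTGA, which contains the E-box, were in 0 of the 8 windows and in 3.2%, 3.44%, 7.15% and 0.974% of all windows. A match describes the letters only.

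BLZ945 mice differed in how many of the 10 genes lay above every Vehicle mouse. BLZ945 4 exceeded every Vehicle mouse in 9 genes, BLZ945 3, 5 and 8 in 8, BLZ945 1 and 6 in 5, BLZ945 2 in 4 and BLZ945 7 in 3. The share over all genes is not given per mouse, so these counts are not read as particular to these 10 genes. BLZ945 6 was the lowest BLZ945 mouse for 5 genes (Cd9, Ank, Ch25h, Trem2 and Tyrobp) and the highest for 3 (Cst7, Itgax and Lgals3). Within Vehicle, Vehicle 3 was the highest mouse for 5 genes and the lowest for 2. The mean of 7 natural killer cell markers was highest in BLZ945 6, at 7.27 against 4.27 to 6.08 in the other mice, and its part in the values of that mouse was not tested.

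**Figure D3:**
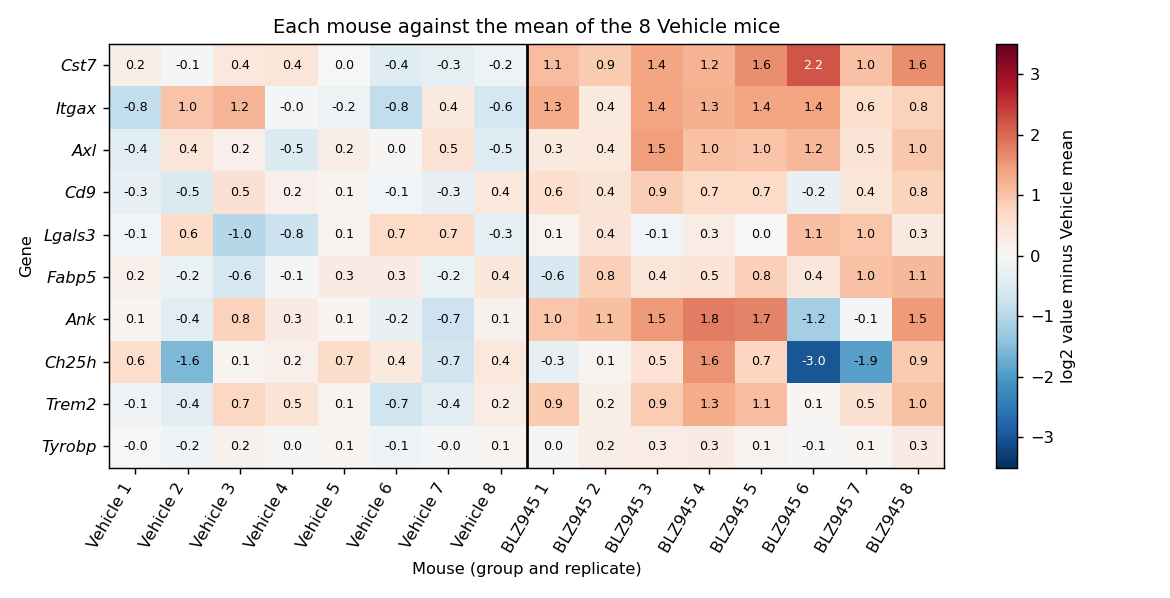
Log2 value of each gene (rows) in each of 16 mice (columns) minus the mean of the 8 Vehicle mice, red for higher and blue for lower. BLZ945 6 combines the highest Cst7 with the lowest Ank and Ch25h of the BLZ945 mice.

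With group means removed, the 10 genes fell apart into genes that varied together and genes that did not. Over 16 mice, Ank, Ch25h, Cd9, Trem2 and Tyrobp correlated with each other at r = 0.591 to 0.901, and Lgals3 correlated with each of these 5 at r = -0.853 to -0.565. These sets were seen in the data and carry no test, and all values of a mouse share 1 array and 1 sort. By Pearson's r, Ank and Ch25h were highest (0.901; 0.530 in Vehicle and 0.982 in BLZ945), and r was 0.740 without the 2 mice farthest from the median of Ank. By Spearman's rho, Cd9 and Tyrobp (0.815) were above Ank and Ch25h (0.782). Trem2 and Lgals3 were the most opposed (r = -0.853, rho = -0.847, and -0.785 without the 2 mice farthest from the Lgals3 median), in Vehicle (-0.953) and in BLZ945 (-0.715) alike. Cd9 and Ch25h (r = 0.715) fell to 0.339 without the 2 mice farthest from the Cd9 median, so that relation rests on those mice.

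Cst7, the gene with the largest rise, had r between -0.196 and 0.267 to these 5 genes over all 16 mice. The sign differed by agent, with r from 0.192 (Ch25h) to 0.804 (Trem2) in Vehicle and from -0.492 (Cd9) to -0.169 (Trem2) in BLZ945. Without the 2 mice farthest from the Cst7 median, r over both agents was 0.360 (Ch25h) to 0.671 (Trem2), so the low values over all 16 mice depend on those 2. Itgax and Axl went together at r = 0.592, and Itgax and Fabp5 were opposed at -0.645. Of 45 pairs, 23 were above 0 and 22 below, with a median r of 0.01.

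**Figure D4:**
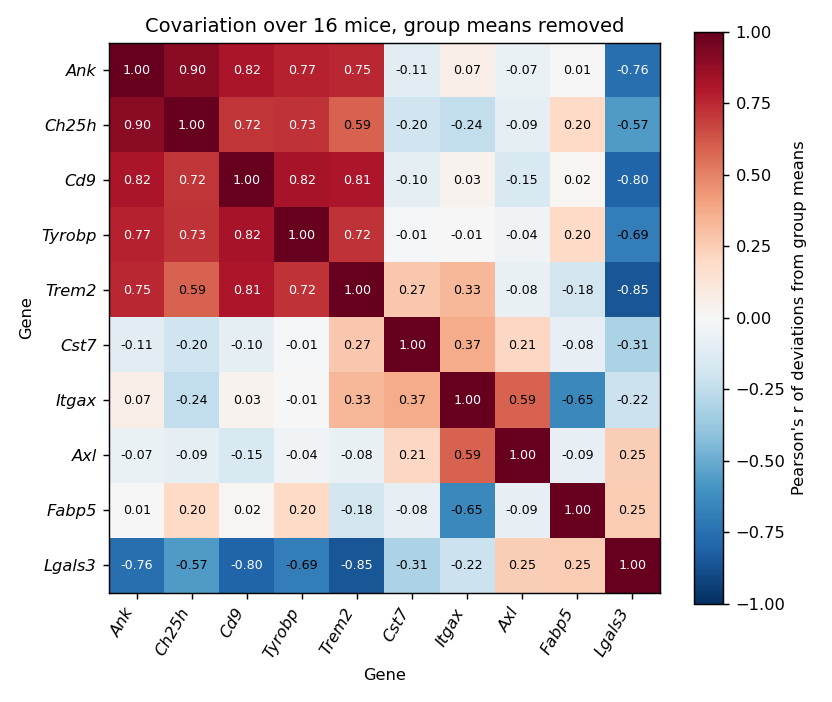
Pearson's r of deviations from group means over 16 mice for each pair of the 10 genes (rows and columns), red for positive and blue for negative. The block of Ank, Ch25h, Cd9, Tyrobp and Trem2 is positive throughout, and its values against Lgals3 are negative.

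The genes most like each of these 10 were found by the same measure over all 12394 genes. Nearest to Trem2 were Vkorc1 (r = 0.919), Mzt2 (0.911) and Lefty1 (0.895), and nearest to Ank were Ccdc107 (0.954), Pdcd1 (0.925) and Tmem176b (0.920). Ch25h was followed by Tmem176a (0.934), Tmem176b (0.913) and Cd14 (0.909), Cd9 by Gsg1 (0.909), Cd53 (0.898) and Ywhah (0.895), and Tyrobp by Hint2 (0.869), Creg1 (0.855) and Atraid (0.848). Nearest to Lgals3 were Rsad2 (0.920), Helz2 (0.873) and Sdc4 (0.847), of which Rsad2 and Helz2 are induced by interferon. Itgax went with Tmbim6 (0.859), Relb (0.849) and Tmem50b (0.838), Axl with Arrdc4 (0.782), Zfp39 (0.762) and Auh (0.759), and Fabp5 with Psmb6 (0.883), Dctn3 (0.854) and Ndufaf3 (0.835). Cst7 was followed by Pdzd11 (0.814), Tph1 (0.771) and Atp5j (0.715). No function in common is read from these values.

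Levels of several marker lists moved with the same genes. The mean of the macrophage markers, with group means removed, correlated with Trem2 at r = 0.919, Cd9 at 0.809, Ank at 0.770, Tyrobp at 0.702, Ch25h at 0.619 and Lgals3 at -0.868 over 16 mice. For Cst7 this r was 0.194. The mean of the microglia markers had r = 0.712 with Cd9, 0.661 with Trem2 and -0.811 with Lgals3. For the dissociation stress genes these values were -0.657, -0.611 and 0.604. Lists of other cell types reached similar sizes, with r = -0.681 for Trem2 and the endothelial mean. For Tyrobp it was 0.663 with the oligodendrocyte mean and 0.659 with the astrocyte mean. The glioma and oligodendrocyte precursor mean had r = 0.731 with Ch25h and 0.554 with Ank, and the natural killer cell mean -0.626 and -0.575. With the macrophage mean as a covariate, chosen after the data were seen, the Trem2 difference was 0.41 (limma adjusted p = 0.0529) and that of Itgax 0.96 (0.0756). In the same fit Axl rose by 0.89 (0.0155), Cst7 by 1.33 (0.000641) and Lgals3 by 0.78 (0.0055), the last of which did not pass without the covariate.

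**Figure D5:**
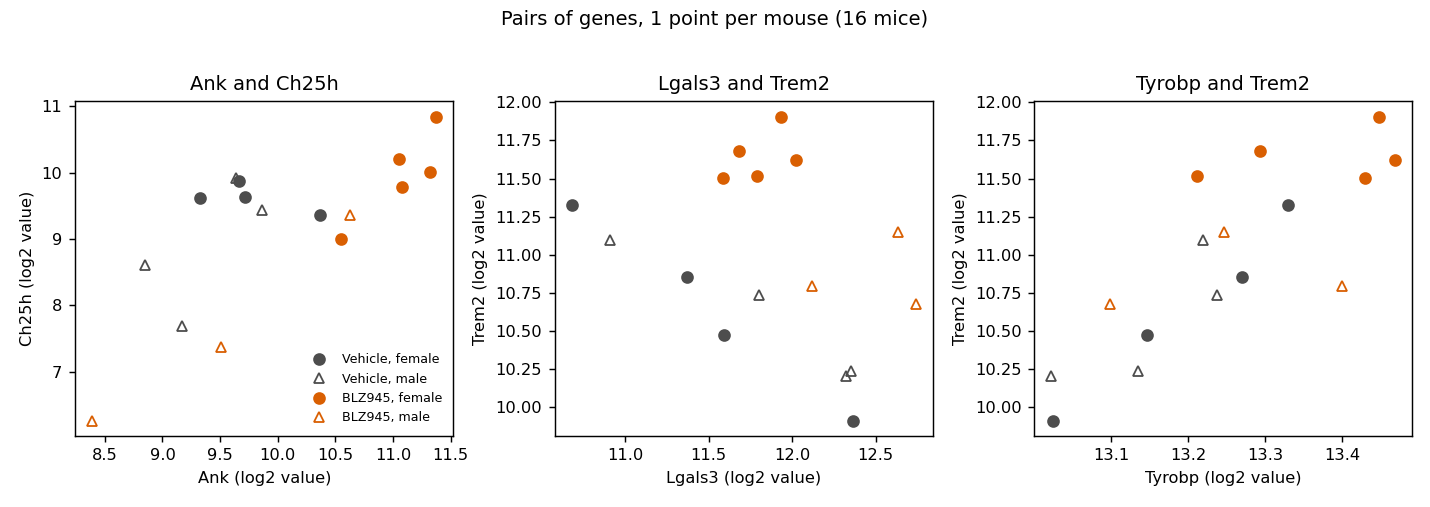
Log2 values of 3 pairs of genes in 16 mice, 1 point per mouse, by agent (colour) and sex (filled circles for females, open triangles for males). Ank and Ch25h rise together, Trem2 falls as Lgals3 rises within each agent, and Trem2 rises with Tyrobp.

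Sex, age and tumour volume gave no call among the 10 genes. Between males and females, with agent as a covariate, 0 genes passed and 4 had an unadjusted p under 0.05, where 9.8% of all genes did and 0.0323% passed. Males minus females differed by -1.48 for Ch25h and by -0.96 for Ank (limma adjusted p = 0.484 for both). In BLZ945, Ank was 11.07 ± 0.33 in 5 females and 9.51 ± 1.12 in 3 males, against 9.77 ± 0.43 and 9.38 ± 0.46 in 4 Vehicle females and 4 males. Ch25h was 9.97 ± 0.67 in those BLZ945 females and 7.67 ± 1.57 in the males. The agent difference of Ank was 1.31 in females and 0.13 in males, and that of Trem2 1.00 and 0.31. Tested as an interaction of agent and sex, 0 of the 10 passed (limma adjusted p 0.983 to 0.999). Of the 10, 1 had an unadjusted p under 0.05, where 3.34% of all genes did and 0% passed. In simulated data this fit recovered 25.4% of interactions of 1 log2 unit and 83.3% of those of 2, so a dependence on sex can be missed.

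The older BLZ945 mice, of 13.14 weeks, differed from the younger by at most 1.01 (Ch25h), and 0 of the 10 genes passed by limma, with 0 at an unadjusted p under 0.05. Among all genes 0.0403% passed and 18.7% had an unadjusted p under 0.05. In simulated data the age fit recovered 50.7% of differences of 1 log2 unit. Fabp5 was 12.89 ± 0.29 in the 4 older and 12.30 ± 0.59 in the 4 younger mice (limma adjusted p = 0.281). Against log2 tumour volume within the 8 BLZ945 mice, 0 passed by limma and 2 had an unadjusted p under 0.05, where 6.83% of all genes did. Their slopes were, for Fabp5, 0.82 per doubling of volume (SE 0.20, adjusted p = 0.653) and Itgax at -0.52 (SE 0.20, adjusted p = 0.711), neither past the threshold.

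Within the mice of 11.29 weeks, 4 per group, 0 of the 10 genes passed by limma, 89 of all 12394 did, and the differences of the genes that rose in the whole set were 1.48 for Cst7, 1.28 for Itgax, 0.76 for Axl and 0.63 for Trem2. Cst7 alone passed with age cohort as a covariate, where the estimate rests on the 11.29-week mice as well.

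Further genes of the state were read from lists. Of 20 other genes listed for its later, TREM2-dependent step, 16 were measured, and Spp1, Lilrb4a, Cd63 and Serpine2 were not. Cybb, among those measured, differed by -0.93 (limma adjusted p = 0.179). Of the 16 genes, 9 rose and 0 fell, where 2.6% of all genes rose, and their median difference was 0.60. Those with the smallest p were the lipoprotein lipase gene Lpl (1.42, limma adjusted p = 0.000124), the growth factor gene Igf1 (1.56, 0.000124), the glycoprotein gene Gpnmb (1.69, 0.00239), the adhesion gene Cadm1 (1.00, 0.00491), the CSF-1R ligand gene Csf1 (0.85, 0.0129) and the chemokine gene Ccl6 (0.81, 0.014). Clec7a, the beta-glucan receptor dectin-1, rose by 0.83 (limma adjusted p = 0.0474). Of 6 genes described for the earlier step, 0 rose and 0 fell by limma, with a median of 0.17. Their mean lay between 13.27 and 13.49 in Vehicle, near the arrays' highest values, where a change can be compressed. For the 16 later genes that mean lay between 10.52 and 10.91, so the 2 steps are not compared. Apoe, the lipoprotein that TREM2 can bind, differed by 0.34 (0.0938) and the cathepsin gene Ctsd by 0.25 (0.181). These lists were chosen with earlier results of these data known and were given no test as lists.

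Resting microglia genes went the other way where they passed. Of 15 measured, 4 fell and 0 rose, where 5.34% of all genes fell, with a median of -0.42. Slc2a5, a fructose transporter gene, fell by 1.79 (limma adjusted p = 0.000232), as did the purine receptor gene P2ry12 (-1.35, 0.00699), Crybb1 (-1.50, 0.00174) and Tmem119 (-1.64, 0.000358). The fractalkine receptor gene Cx3cr1 differed by -0.42 (limma adjusted p = 0.259).

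Of 22 genes of TREM2 signalling and processing, 1 fell and 0 rose, with a median of -0.15, where 5.34% of all genes fell and 2.6% rose. The gene that fell was Adam10, a protease that sheds TREM2 from the surface, which fell by 0.55 (limma adjusted p = 0.0121). Of 8 other genes of the TREM family or of receptors linked to TYROBP, 2 fell and 0 rose. Both were on dim probe sets: Trem3 (-0.88, limma adjusted p = 0.0027) and Trem1 (-0.81, 0.0106).

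Markers of other cells moved with the agent. Of 8 markers of monocyte-derived macrophages 4 fell (F13a1, Tgfbi, Hp and Ccr2), and their mean lay between 7.50 and 8.56 in Vehicle and between 6.09 and 7.39 in BLZ945, without overlap. With that mean as a covariate 0 of the 10 genes and 0 of all genes passed by limma, and mean and agent cannot be told apart. Perivascular macrophage markers fell in 5 of 6 (6.38 to 7.66 and 5.32 to 6.09), cell cycle genes in 13 of 14 (7.13 to 8.35 and 5.05 to 6.98), glioma and oligodendrocyte precursor markers in 5 of 11 (5.88 to 7.46 and 4.81 to 6.32) and astrocyte markers in 2 of 8 (5.90 to 6.54 and 5.14 to 6.12). Microglia markers fell in 2 of 7 (10.63 to 11.50 and 9.81 to 11.10), and dissociation stress genes rose in 3 of 10 and fell in 2 (9.23 to 10.81 and 9.70 to 10.34). Their part in the rise of Cst7, Itgax, Axl and Trem2 was not tested beyond the covariate fits.

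Dendritic cells express Itgax, and of 8 of their markers 0 rose and 0 fell by limma (5.68 to 6.96 and 5.89 to 7.69). With the dendritic cell mean as a covariate the Itgax difference was 1.01 (limma adjusted p = 0.0333). With the glioma mean it was 0.51 (limma adjusted p = 0.607), and Cst7 still passed at 1.26 (0.0222). With the natural killer cell mean, chosen after the data were seen, Itgax did not pass (0.94, limma adjusted p = 0.0821), while Cd9 (0.74, 0.00799) and Ank (1.36, 0.0189) did. Markers of neutrophils (9 measured), natural killer cells (7), T cells (7), B cells (5), oligodendrocytes (7), neurons (8), endothelium (8), pericytes and fibroblasts (8) and red cells (3) gave 0 calls by limma, and among these the granzyme gene Gzma came nearest (1.83, adjusted p = 0.0506).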

How the data were processed

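RNA of sorted macrophages from 16 mice was hybridised to 16 Affymetrix arrays. GCOS 1.4 and RMA are listed in the submitters' processing notes, and the step made with each is not. The deposited values are log2 expression values per probe set and were used as deposited, with no further normalization. The arrays do not share 1 distribution, since the SD of an array's values ran from 2.22 to 2.49. The genome build is not given in the sources used here.

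Of 22690 probe sets, 20393 carried 1 symbol in the platform annotation, 691 several and 1606 none. Each of 12394 genes was read from its brightest probe set. Agents were compared with limma 3.58.1 (R 4.3.3; lmFit and eBayes, 8 mice against 8), with Benjamini-Hochberg adjustment over all genes and a threshold of 0.05. Sex, the agent by sex interaction, age within BLZ945 and tumour volume within BLZ945 were fitted the same way. The functions were tested on simulated data. Permutation tests were exact and two-sided. Replicates are separate mice, and 8 per group set the precision.

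The members and lists were chosen with earlier results of these data known. Named genes were all 10 members, up to 6 changed genes of a list by p (or else 2), 12 further fixed genes, the 2 brightest and any changed marker of each cell type, and the 3 most correlated genes per member. Alternatives were other probe set summaries, filters, normalization, array weights, covariates, subsets of mice, a replicate block and the omission of each mouse.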

Additional observations from a re-analysis of the deposited data

Results flagged for a closer look

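Of 20 groups checked (10 genes in 2 agents), 2 held a mouse far from the others by Dixon's 95% criterion for 8 values, which chance does in about 1 in 20. For Cd9, BLZ945 6 was at 11.64 and the next lowest BLZ945 mouse at 12.32, a gap of 0.615 of the group's range. For Fabp5, BLZ945 1 was at 11.46 and the next lowest at 12.42, a gap of 0.562 of the range. No cause was tested for either.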

How the results depend on the processing

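Of 36 alternatives, 25 kept the number of members that passed within 1.5 times of 4. The number was 1 with age cohort or the glioma marker mean as covariate, 7 with the dendritic cell mean, and 0 with tumour volume (14 mice) or the monocyte-derived mean as covariate, in mice of 11.29 weeks or in males. By the exact permutation test it was 2. Leaving out each mouse gave 2 to 6, with 2 without Vehicle 1, Vehicle 6 or BLZ945 5. Of all genes 984 passed, against 215 with age cohort, 1644 with array SD, 15 with volume, 172 with the glioma mean and 0 with the monocyte-derived mean as covariate. In mice of 11.29 weeks 89 passed, in females 393, in males 2, and with 1 mouse left out 710 to 1188. With volume as covariate Lgals3 turned to -0.62 and Fabp5 to -0.70. Ch25h turned to 1.60 with the glioma, 0.12 with the dendritic and 0.56 with the natural killer mean (the last chosen after seeing the data), 0.34 in females, 0.24 without BLZ945 6 and 0.08 without BLZ945 7, with -0.41 to 0.24 over all omissions. Subsets left fewer mice and covariates fewer degrees of freedom. The SE of Cst7 was 0.18 in the main fit, 0.33 with the monocyte-derived mean and 0.46 with volume as covariate. The cause of the changed counts was not tested. Cst7 failed in 4 of the 36 alternatives, Axl in 6, Itgax in 15 and Trem2 in 20. The sex, interaction, age and volume fits gave 0 members in every alternative run. Same-numbered Vehicle and BLZ945 mice deviated together (r over 0.1) in 5 of 8 pairs, and 1 of 8 matched its own number best. The labels state no pairing, and these values neither show nor exclude one. With the replicate number as a block, 5 members and 873 genes passed, Itgax no longer (limma adjusted p = 0.0543) and Cd9 (0.0341) and Ank (0.0492) newly. Trem2 passed with a smaller SE of 0.12 in that fit (limma adjusted p = 0.00263). Values near the arrays' maximum, as for Tyrobp, and dim probe sets limit what can be seen.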
